A study of Homo sapiens with 6 samples.

Results

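A set of 10 genes of the Hippo pathway was followed in *CNTNAP4* knockout osteosarcoma cells, namely the coactivators *YAP1* and *WWTR1* (TAZ), the transcription factors *TEAD1*, *TEAD2*, *TEAD3* and *TEAD4*, the kinases *LATS1* and *LATS2*, and the YAP/TAZ target genes *AMOTL2* and *ANKRD1*. They were taken by symbol from the 54308 genes listed with log2 signals. All 10 had a value in every library and were among the 19306 genes tested. The cells were 143B, a human osteosarcoma line, and bulk RNA was sequenced from 3 vector control (VC) and 3 *CNTNAP4* KO biological replicates. VC cells had been transfected with a control plasmid, for which the study lists a negative control guide sequence. KO cells had been transfected with a CRISPR/Cas9 plasmid against *CNTNAP4*, which encodes a contactin-associated membrane protein. The labels give 48 h of transfection for both groups. The methods give a longer time, after which cells of both groups were sorted into the wells of a plate. They describe KO colonies from single cells, and they call the sequenced cells clonal, both with and without KO. Which colony gave which RNA sample is not given in the sources used here, so p-values measure the spread between these samples, which may come from 1 clone in each group.

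The Hippo pathway is a kinase cascade that restrains growth. MST kinases activate LATS kinases, and LATS kinases phosphorylate YAP and TAZ, which are then held in the cytoplasm and degraded. YAP and TAZ that escape phosphorylation enter the nucleus and bind TEAD factors, which carry the DNA binding domain. In mesenchymal cells YAP and TAZ also respond to matrix stiffness and to cell attachment. RNA levels do not measure the phosphorylation or the location of these proteins.

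Signals are on a log2 scale after quantile normalization between libraries. Products of signal and transcript length piled up at whole multiples of 1 step, so the signals are per length and levels of different genes could be set side by side. The read depth of the libraries is unknown. *CNTNAP4* itself had a value in 1 library only, VC replicate 3, at -7.18, so its RNA does not check the labels. The mesenchymal markers *VIM* and *SPARC* were high in all 6 libraries, at 10.33 to 10.93 and 6.46 to 6.95. Of the osteoblast lineage genes, *COL1A1* lay at 2.28 to 2.73, *RUNX2* at 1.30 to 1.69 and *ALPL* at -1.34 to -0.49, and *COL1A2* was low at -5.72 to -4.59. Of the markers of other cell types, *CD68* lay at 4.43 to 4.51 in VC and 5.71 to 6.46 in KO, *EPCAM* at 1.62 to 1.79 in VC and 0.84 to 1.16 in KO, and *CDH1*, *KRT19*, *PTPRC*, *PECAM1* and *CDH5* had no value above -2.39. The part of the *CD68* and *EPCAM* differences in the results was not tested.

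At an adjusted p under 0.05 (limma, Benjamini-Hochberg over all genes tested), 5 of the 10 Hippo genes differed between KO and VC. *TEAD3* was higher in KO, and *TEAD1*, *TEAD2*, *AMOTL2* and *ANKRD1* were lower. In bulk RNA fewer cells that express a gene and less of its RNA per cell cannot be told apart. The same call was made for 32.9% of all genes tested, 13.1% higher and 19.8% lower. The KO and VC libraries did not overlap in 7 of the 10 genes, against 59.3% of the 17698 genes with 6 values. The median log2 fold change of the 10 genes was -0.22, and that of all genes tested was -0.13. All 5 calls were lost when VC replicate 1, 2 or 3 was left out. Of the 5 calls, 5 remained without KO replicate 1, 2 without KO replicate 2 and 1 without KO replicate 3. Each of the 5 kept its direction in all 6 of these fits. Over all genes, the 6354 calls of 19306 became 1403 of 18610 without VC replicate 1, 2450 of 18748 without VC replicate 2 and 1223 of 18626 without VC replicate 3. They became 8669 of 18458 without KO replicate 1, 4393 of 18646 without KO replicate 2 and 2018 of 18584 without KO replicate 3. In 8 of the 10 genes KO replicate 1 was the KO library nearest the VC mean. The median over all values was already 0.619 in each library, so median centring used the median of the 17698 genes with 6 values. After it, 6 of the 10 genes were called (32.3% of all genes). With replicate number as a block 0 were called (7.94% of all genes), although the numbers did not pair the samples.

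**Figure D1:**
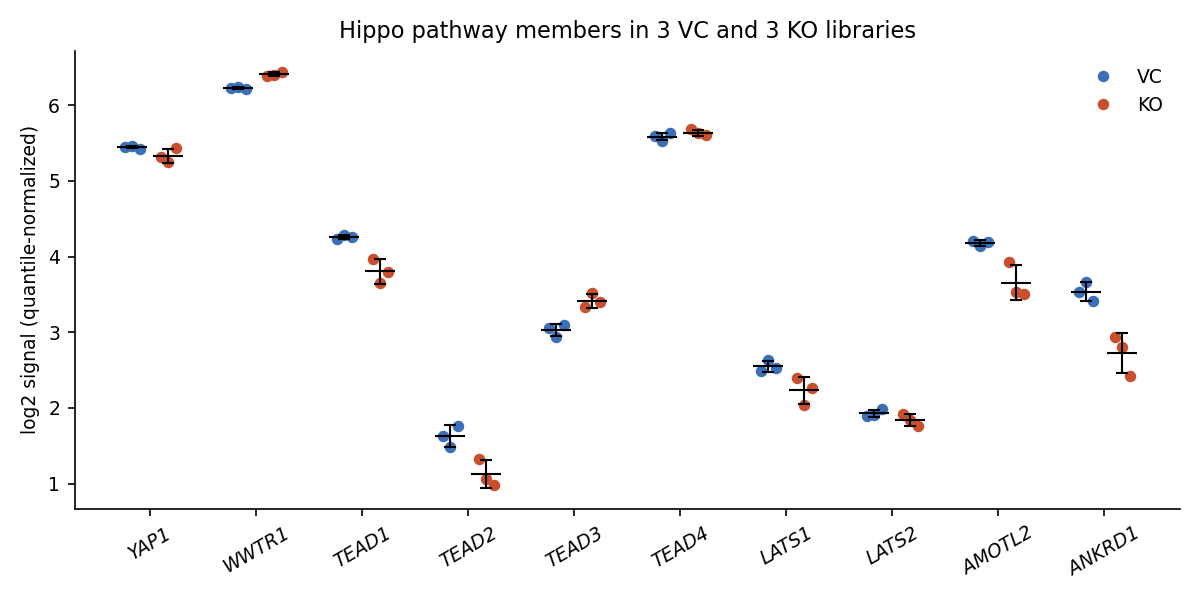
Quantile-normalized log2 signal of the 10 Hippo genes in each library, with VC in blue and KO in orange. Points are libraries in replicate order, the long bar is the mean and the error bar is 1 SD (n = 3). The groups are apart in 7 genes and overlap in *YAP1*, *TEAD4* and *LATS2*.

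The coactivators and *TEAD4* had the highest levels of the 10 genes. *YAP1* signals were 5.45, 5.46 and 5.43 in VC and 5.31, 5.25 and 5.43 in KO. KO replicate 3 fell within the VC range, and the log2 fold change of -0.12 (95% confidence interval -0.31 to 0.075, limma adjusted p = 0.275) did not pass the test. *WWTR1*, which encodes the YAP paralog TAZ, had signals of 6.23, 6.23 and 6.22 in VC and 6.39, 6.40 and 6.44 in KO. Every KO value was above every VC value, but the log2 fold change of 0.19 (standard error 0.062, 95% confidence interval 0.030 to 0.34) had a limma adjusted p of 0.0685. *WWTR1* passed the threshold after median centring over genes with 6 values (limma adjusted p = 0.0428), after 1 was added to the linear signal (0.00572) and without KO replicate 1 (0.0499). It also passed in the upper 50% of mean signal (0.0254), with trend and robust variance moderation (0.0224) and with no moderation (0.0177). In every other setting *WWTR1* did not pass (0.0574 to 0.190). Its antisense gene *WWTR1-AS1*, looked up after the values were seen, had mean signals of -2.74 in VC and -2.12 in KO, and whether reads were counted by strand is not given in the sources used here.

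Set against each other within a library, the coactivators stood farther apart in KO, with *WWTR1* the higher in all 6 libraries. The linear ratio of *YAP1* to *WWTR1* was 0.583 ± 0.0051 in VC and 0.473 ± 0.023 in KO (SD, n = 3). On the log2 scale *YAP1* minus *WWTR1* differed by -0.30 between the groups, with no overlap of the libraries. An exact two-sided permutation test gave p = 0.1, the smallest that 3 against 3 allow, and 0.114 adjusted over 8 paralog pairs. The 20 genes nearest *YAP1* on chromosome 11 by position in the RefSeq table of GRCh38.p14 had a median log2 fold change of 0.35, with 8 called higher and 2 lower. Those neighbours include the apoptosis inhibitors *BIRC2* and *BIRC3* and the matrix metalloproteinase genes *MMP1*, *MMP3* and *MMP10*, and they were named after their values were seen. *BIRC3*, next to *YAP1* in that order, had mean signals of 0.39 in VC and 3.21 in KO, for a log2 fold change of 2.81 (limma adjusted p = 0.00571), and *BIRC2* one of 0.36 (0.0297). The value of *YAP1* itself, -0.12, lay below the median of these neighbours.

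By pattern over the 6 libraries, the genes nearest *YAP1* among 9652 candidates with 6 values and in the upper 50% of mean signal were *DNAJA2*, *JADE3* and *CXorf56*. Their Euclidean distances from *YAP1*, on gene-centred log2 signals, were 0.0615, 0.0621 and 0.0622.

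The 4 TEAD genes encode the DNA-binding partners of YAP and TAZ, and of these *TEAD3* rose, *TEAD1* and *TEAD2* fell and *TEAD4* did not pass the test. *TEAD1* had signals of 4.24, 4.29 and 4.26 in VC and 3.97, 3.65 and 3.80 in KO. Every KO library was below every VC library, the log2 fold change was -0.46 (standard error 0.10, limma adjusted p = 0.0277), and the linear signal fell by 27.1%. The call remained without KO replicate 1 (limma adjusted p = 0.00947) or KO replicate 2 (0.0431) and was lost without KO replicate 3 (0.0806) or without VC replicate 1 (0.0825), 2 (0.0771) or 3 (0.0873). *TEAD2*, the family member with the lowest level, had signals of 1.63, 1.48 and 1.77 in VC and 1.33, 1.06 and 0.98 in KO. These groups were also apart, with a log2 fold change of -0.50 (standard error 0.13, limma adjusted p = 0.0377). *TEAD2* stayed called only without KO replicate 1 (limma adjusted p = 0.0152), and its adjusted p was 0.0625 to 0.111 when any other single library was left out.

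*TEAD3* was the only one of the 10 genes that was called higher in KO. Its signals were 3.05, 2.94 and 3.10 in VC and 3.33, 3.52 and 3.40 in KO, with every KO library above every VC library. The log2 fold change was 0.39 (standard error 0.086, 95% confidence interval 0.17 to 0.60, limma adjusted p = 0.0279), and it was called without KO replicate 1 (0.0201) but not without any other single library (0.0527 to 0.0849). *TEAD4*, the most abundant TEAD, had signals of 5.60, 5.53 and 5.63 in VC and 5.68, 5.63 and 5.60 in KO. These overlapped, and the log2 fold change of 0.051 had a 95% confidence interval of -0.12 to 0.22 (limma adjusted p = 0.585).

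**Figure D2:**
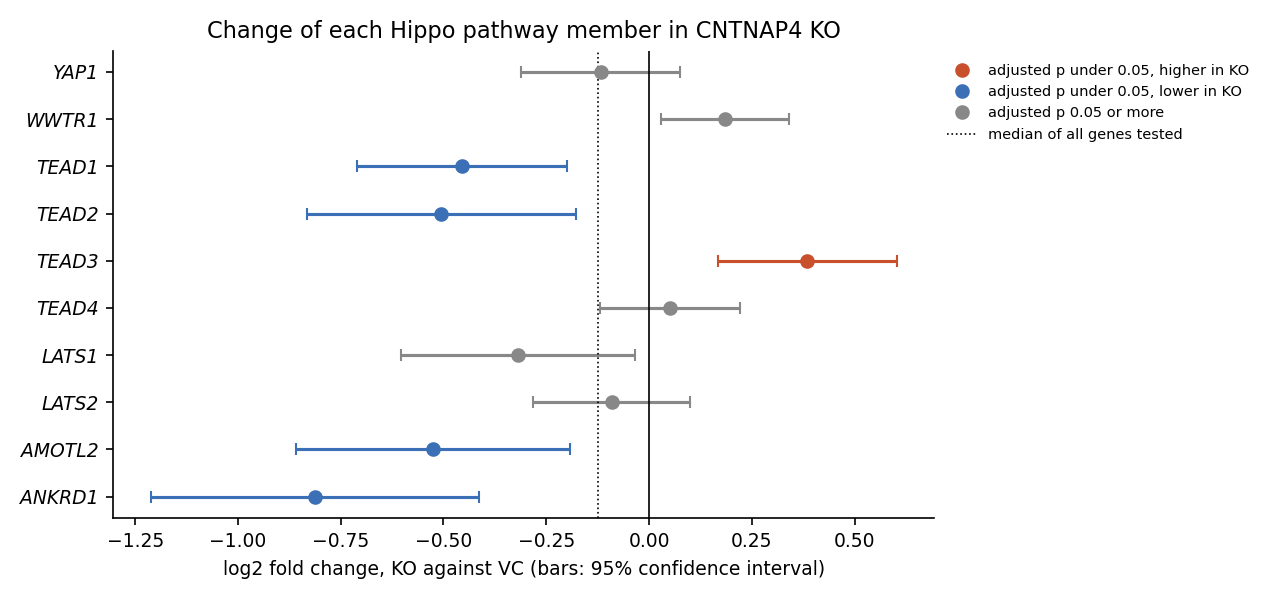
Log2 fold change of each Hippo gene in KO against VC (points) with its 95% confidence interval (bars), colored by call. The dotted line marks the median of all genes tested, -0.13. *TEAD3* lies to the right of 0 and *TEAD1*, *TEAD2*, *AMOTL2* and *ANKRD1* lie to the left.

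The makeup of the TEAD family was then given as the share of each gene in the summed linear signal of a library. *TEAD4* held 61.2% ± 0.46 of the sum in VC and 64.9% ± 0.54 in KO (SD, n = 3). *TEAD1*, the next in rank, held 24.4% ± 1.02 in VC and 18.3% ± 1.58 in KO. *TEAD3* held 10.41% ± 0.32 in VC and 13.95% ± 1.24 in KO, and *TEAD2* 3.94% ± 0.28 and 2.85% ± 0.28. None of the 4 shares overlapped between the groups, and each gave the smallest p that an exact two-sided permutation test allows here, 0.1. The shares of a library sum to its whole TEAD signal, so they are not independent of each other.

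**Figure D3:**
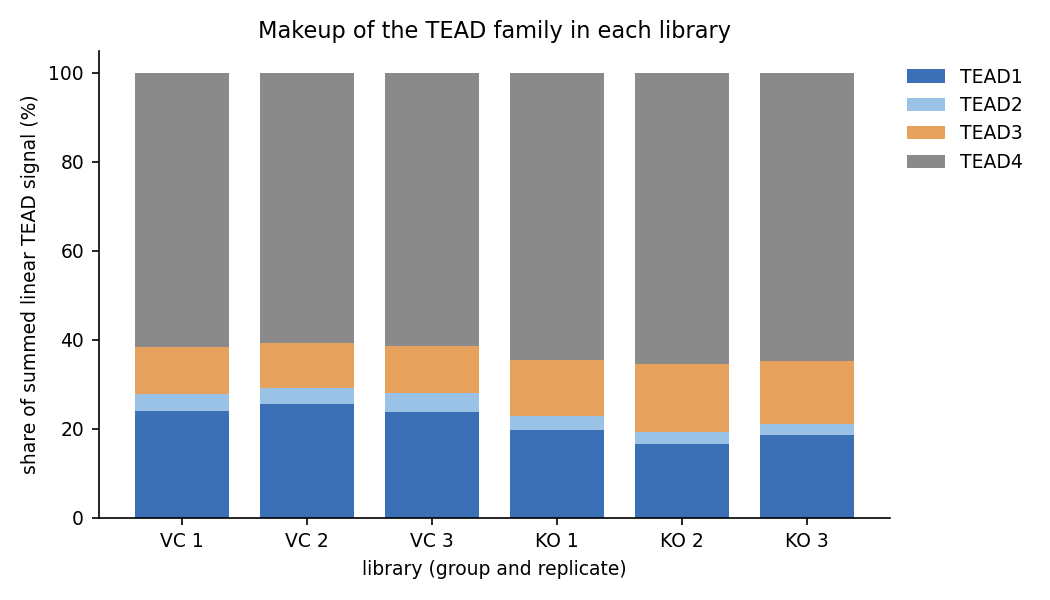
Share of the summed linear TEAD signal (%) held by each TEAD gene in the 6 libraries, as stacked bars. *TEAD4* takes 61.2% on average in VC and 64.9% in KO, and the *TEAD1* share is smaller and the *TEAD3* share larger in each KO library than in any VC library.

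TEAD paralogs were also set against each other within a library, in which a scaling shared by all genes cancels. *TEAD3* minus *TEAD1* was -1.23 ± 0.10 in VC and -0.39 ± 0.25 in KO (SD, n = 3), a difference between the groups of 0.84 on the log2 scale. The same difference was 0.89 for *TEAD3* minus *TEAD2*, 0.51 for *TEAD4* minus *TEAD1*, 0.56 for *TEAD4* minus *TEAD2* and -0.33 for *TEAD4* minus *TEAD3*. In these 5 pairs the groups were apart, with an exact two-sided permutation p = 0.1 and 0.114 adjusted over the 8 pairs. The TEAD pairs are made from the same few genes, so they are not independent of each other. Of single genes with 6 values 59.3% had no overlap, and no such share was computed for other pairs. *TEAD2* minus *TEAD1* was the pair whose libraries overlapped, with a difference of -0.050 (exact p = 0.7), and its sign turned with 1 added to the linear signal (0.065).

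*LATS1* and *LATS2* encode the kinases that phosphorylate YAP and TAZ, and neither passed the test. *LATS1* had signals of 2.49, 2.63 and 2.53 in VC and 2.39, 2.04 and 2.26 in KO. The KO libraries were all below the VC libraries, and the log2 fold change was -0.32 (standard error 0.11, 95% confidence interval -0.60 to -0.034, limma adjusted p = 0.0802). It passed the threshold without KO replicate 1 (limma adjusted p = 0.0351), with trend and robust variance moderation (0.0406) and when the genes tested were limited to the upper 50% of mean signal (0.0281). In that last refit 7 of the 10 Hippo genes and 59.1% of the 9653 genes tested were called. In every other setting *LATS1* did not pass (0.0511 to 0.185). *LATS2*, itself also a YAP target, had signals of 1.89, 1.90 and 1.99 in VC and 1.91, 1.84 and 1.76 in KO. These overlapped, with a log2 fold change of -0.091 (95% confidence interval -0.28 to 0.10, limma adjusted p = 0.385). The linear ratio of *LATS2* to *LATS1* was 0.650 ± 0.043 in VC and 0.764 ± 0.092 in KO (SD, n = 3). On the log2 scale *LATS2* minus *LATS1* differed by 0.23 between the groups with no overlap of libraries (exact two-sided permutation p = 0.1, adjusted 0.114).

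Both remaining genes are transcribed in response to YAP and TAZ, and both fell. *ANKRD1* encodes a nuclear ankyrin repeat protein, and its signals were 3.53, 3.67 and 3.41 in VC and 2.94, 2.80 and 2.43 in KO. No KO library reached the lowest VC library. The log2 fold change was -0.81 (standard error 0.16, 95% confidence interval -1.21 to -0.41, limma adjusted p = 0.0204), and the linear signal fell by 43.1%. The call was kept without KO replicate 1 (limma adjusted p = 0.0133), 2 (0.0425) or 3 (0.0442) and lost without VC replicate 1 (0.0677), 2 (0.0633) or 3 (0.0597).

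*AMOTL2* encodes an angiomotin family protein that binds YAP at cell junctions. It had signals of 4.21, 4.13 and 4.20 in VC and 3.92, 3.53 and 3.51 in KO, again without overlap. Its log2 fold change was -0.53 (standard error 0.13, limma adjusted p = 0.0355), and the linear signal fell by 30.5%. KO replicates 2 and 3 lay close together and KO replicate 1 stood nearer to VC. The adjusted p was 0.00585 without KO replicate 1 and 0.0821 to 0.103 (limma) without any other single library. The genes with patterns nearest to *ANKRD1* were *ARHGEF39*, *SAMHD1* and *DAAM1*, at Euclidean distances of 0.206, 0.240 and 0.242. Such distances are not scaled to the size of a gene's change, so they cannot be compared with those from *YAP1*.

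Promoter sequence of these genes was read from RefSeq (GRCh38.p14), as the 250 bases before each annotated start. Of the 10 Hippo genes, 8 were matched in the promoter table used here, with 12 windows, and *TEAD1* and *TEAD4* were not analysed. The core letters of the TEAD element, GGAATG or its complement CATTCC, were searched on both strands, and so was the AP-1 element TGANTCA, because TEAD and AP-1 factors are known to share enhancers. These elements do not overlap in any window shown. TEAD letters were in 3 of the 8 genes, *ANKRD1*, *AMOTL2* and *YAP1*, and AP-1 letters in *ANKRD1* and *LATS1*, each in 1 window of the gene. Of all 35116 promoter windows, 11.9% held the TEAD letters and 6.57% the AP-1 letters. These shares are per window, whereas a gene with 2 windows can match in either. The windows of *ANKRD1* and *AMOTL2* are shown because both genes fell and held TEAD letters. *TEAD2*, also called lower, held neither element in its 2 windows and is not shown. That of *YAP1* is shown as the other Hippo gene with TEAD letters. That of *CCN2*, a much used target gene, is shown because it held 3 matches and did not pass the test. Capitals mark TEAD and AP-1 letters, and all sequences run 5′ to 3′ on the strand of the gene. The windows are *ANKRD1* at chr10:90921088-90921337 (minus strand), *AMOTL2* at chr3:134374448-134374697 (minus), *YAP1* at chr11:102110197-102110446 (plus) and *CCN2* at chr6:131951373-131951622 (minus).
ANKRD1: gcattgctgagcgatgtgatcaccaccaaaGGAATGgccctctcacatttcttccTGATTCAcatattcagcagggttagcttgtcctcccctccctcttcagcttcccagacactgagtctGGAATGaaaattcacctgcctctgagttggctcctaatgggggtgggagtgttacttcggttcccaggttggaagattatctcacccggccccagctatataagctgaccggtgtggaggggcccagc
AMOTL2: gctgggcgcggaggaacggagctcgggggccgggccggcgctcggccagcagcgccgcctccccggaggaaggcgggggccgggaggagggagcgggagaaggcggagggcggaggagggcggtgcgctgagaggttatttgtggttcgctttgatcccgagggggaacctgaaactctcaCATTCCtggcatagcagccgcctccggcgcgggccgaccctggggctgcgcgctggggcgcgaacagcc
YAP1: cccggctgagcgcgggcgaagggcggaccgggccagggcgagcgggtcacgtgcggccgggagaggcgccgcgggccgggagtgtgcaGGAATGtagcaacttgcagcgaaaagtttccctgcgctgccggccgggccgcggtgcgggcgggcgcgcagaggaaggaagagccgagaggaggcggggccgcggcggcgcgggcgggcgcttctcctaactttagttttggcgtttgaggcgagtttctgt
CCN2: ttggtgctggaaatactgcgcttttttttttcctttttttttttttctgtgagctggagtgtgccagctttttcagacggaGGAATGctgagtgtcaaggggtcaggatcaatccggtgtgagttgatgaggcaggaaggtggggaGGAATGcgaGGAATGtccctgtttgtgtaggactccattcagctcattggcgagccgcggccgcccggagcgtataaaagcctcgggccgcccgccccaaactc
In *ANKRD1* the TEAD letters began 220 and 128 bases upstream of the start and the AP-1 letters 195 bases upstream. *AMOTL2* held 1 TEAD match, 69 bases upstream, in 1 of its 2 windows, and *YAP1* held 1, 162 bases upstream. In *CCN2* the matches began 169, 104 and 95 bases upstream. A match describes letters in the window and is not a measured binding site.

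In VC the order of levels was *WWTR1*, *TEAD4*, *YAP1*, *TEAD1*, *AMOTL2*, *ANKRD1*, *TEAD3*, *LATS1*, *LATS2* and *TEAD2*, and no pair of neighbours in this order overlapped. In KO *ANKRD1* and *TEAD3* changed places. The KO ranges of *TEAD1* and *AMOTL2* overlapped, and so did those of *AMOTL2* and *TEAD3*, although within each KO library *TEAD1* was above *AMOTL2* and *AMOTL2* above *TEAD3*.

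Upstream of these genes, 4 lists of pathway components held 44 genes, of which 43 were tested and *VGLL1* had no value. Of the 43, 19 (44.2%) were called, 5 higher and 14 lower, with a median log2 fold change of -0.28. Over all genes tested 32.9% were called, 13.1% higher and 19.8% lower, with a median of -0.13, and the lists that follow are read against the same shares. After median centring the split was 8 higher and 11 lower, and the calls of *MOB1A* (limma adjusted p = 0.115) and *VGLL3* (0.0640) were lost. When the genes tested were limited to the upper 50% of mean signal, 59.1% of them were called. Of the 36 pathway genes in that refit, 9 were called higher and 17 lower. Of the 19 calls, 2 remained without VC replicate 1, 7 without VC replicate 2, 1 without VC replicate 3, 19 without KO replicate 1, 10 without KO replicate 2 and 6 without KO replicate 3. *CSNK1E* was the 1 gene called in all 6 of these fits. The counts over all genes in these fits are those given with the 10 Hippo genes.

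Among 15 upstream kinases and adaptors, 3 were higher, 5 lower and 7 did not pass, with a median of -0.15. *STK3* and *STK4* encode the MST kinases that activate LATS. *STK3* had signals of 1.22, 1.30 and 1.21 in VC and 0.61, 0.033 and 0.26 in KO, for a log2 fold change of -0.94 (standard error 0.16, limma adjusted p = 0.0152). The other genes of chromosome 8, on which *STK3* lies, had a median log2 fold change of -0.32. *STK4* fell by 0.38 (limma adjusted p = 0.0253), the kinase gene *TAOK2* by 0.62 (0.0429) and *MOB1A*, whose product binds and activates LATS kinases, by 0.31 (0.0495). MAP4K kinases can act beside the MST kinases, and the called genes of that family were higher in KO. *MAP4K4* had signals of 5.77, 5.78 and 5.79 in VC and 6.26, 6.50 and 6.39 in KO, for a log2 fold change of 0.60 (standard error 0.085, limma adjusted p = 0.0116). *MAP4K3* rose by 0.49 (limma adjusted p = 0.0130) and *TNIK*, of the same kinase family, by 0.39 (0.0214). The 20 genes nearest *STK4*, *MOB1A*, *MAP4K3* and *TNIK* had medians of the other sign, 0.099, 0.17, -0.42 and -0.014. The MST partner *SAV1* had a log2 fold change of -0.14 and did not pass (limma adjusted p = 0.218, named after its value was seen).

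Of 12 membrane and junction scaffolds, 3 were lower, 0 higher and 9 did not pass, with a median of -0.36. *WWC3*, a relative of KIBRA, had signals of 1.05, 0.92 and 1.05 in VC and 0.019, -0.78 and -0.81 in KO, for a log2 fold change of -1.53 (standard error 0.25, limma adjusted p = 0.0144). *RASSF1*, which encodes a scaffold of MST kinases, fell by 0.93 (limma adjusted p = 0.0267) and the protocadherin gene *DCHS1* by 0.54 (0.0276). *NF2*, which encodes the tumor suppressor merlin, had all KO libraries below all VC libraries and a log2 fold change of -0.42 that did not pass (limma adjusted p = 0.0642, named after its value was seen).

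Of 13 kinase antagonists and YAP turnover genes, 1 was higher and 5 lower, with a median of -0.096. *CSNK1E*, which encodes casein kinase 1 epsilon, a kinase that can prime YAP for degradation, had signals of 5.10, 4.93 and 5.13 in VC and 5.70, 5.75 and 5.78 in KO, for a log2 fold change of 0.69 (standard error 0.083, limma adjusted p = 0.00963). The other genes of its chromosome, 22, had a median log2 fold change of 0.29, and its 20 nearest genes one of 0.50. *WTIP* and *AJUBA*, which encode LIM proteins that bind LATS, fell by 1.04 (limma adjusted p = 0.0304) and 0.61 (0.0154). *BTRC*, whose product targets phosphorylated YAP for degradation, fell by 0.59 (limma adjusted p = 0.0393), and *STRN3*, a subunit gene of the phosphatase complex that opposes MST kinases, by 0.53 (0.0114). *AJUBA* and *STRN3* lie on chromosome 14, whose other genes had a median of -0.39. The 20 genes nearest *AJUBA* had a median of -0.41, and those nearest *STRN3* one of -0.59. The part of these chromosome and neighbour medians in the results was not tested. The medians of the chromosomes that carry the 10 Hippo genes lay between -0.18 and -0.050. The medians of the 20 nearest genes ranged more widely, with 0.21 around *WWTR1* (its own value was 0.19), -0.25 around *TEAD1* (its own was -0.46) and values between -0.15 and 0.077 around the members other than *YAP1*, *WWTR1* and *TEAD1*, and their part was not tested either. Among the TEAD cofactors, *VGLL4*, which encodes a repressor that competes with YAP for TEAD, rose by 0.30 (limma adjusted p = 0.0346), and *VGLL3* fell by 0.49 (0.0461).

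**Figure D4:**
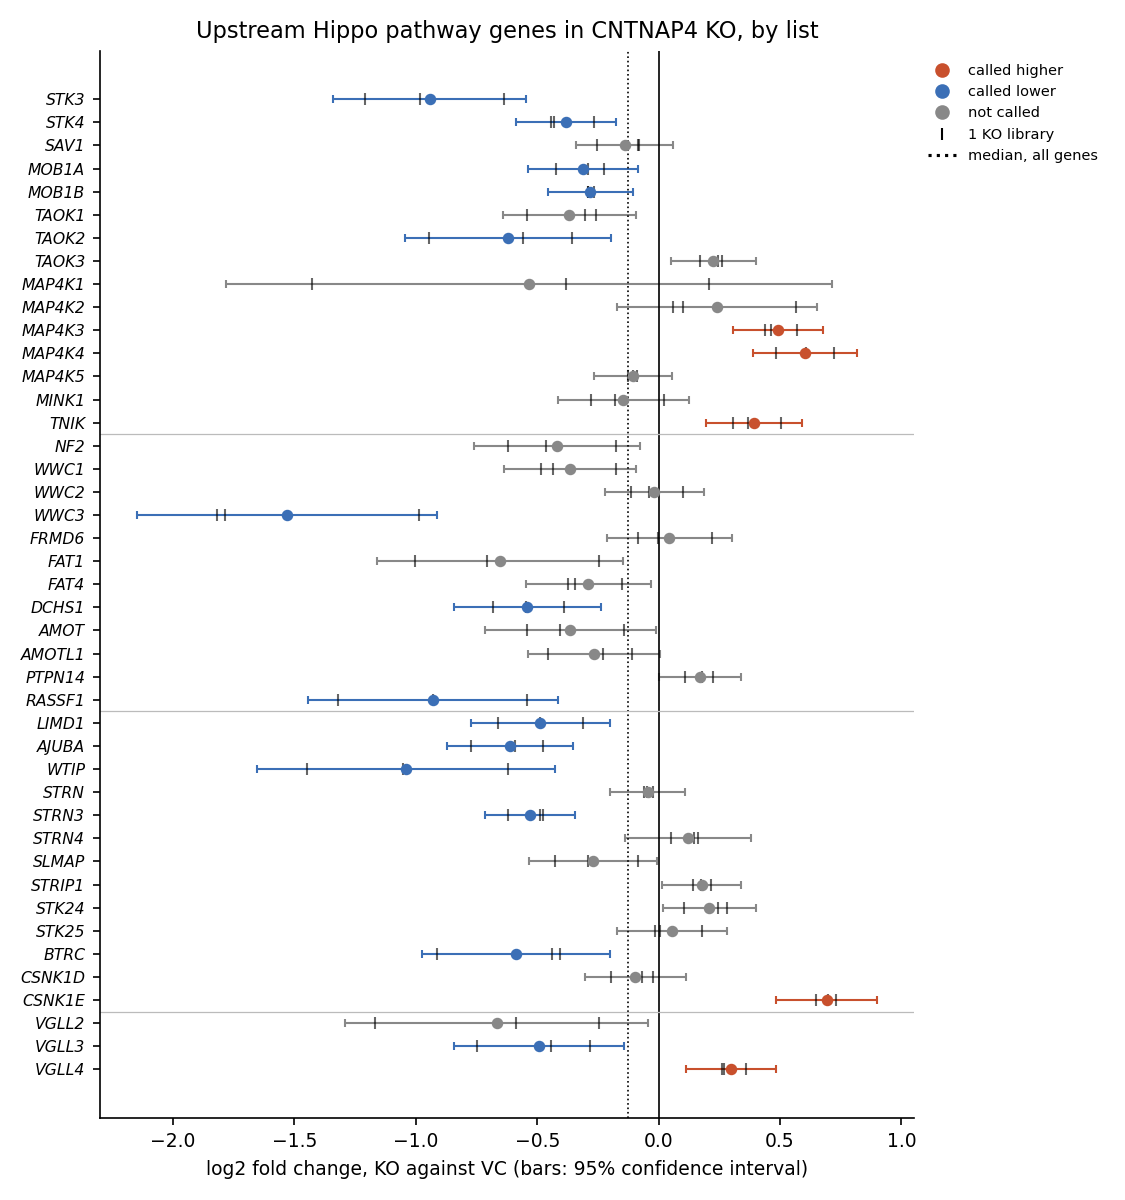
Log2 fold change in KO against VC of the 43 upstream pathway genes tested (points) with 95% confidence intervals, separated by grey lines into kinases and adaptors, scaffolds, antagonists and YAP turnover, and TEAD cofactors. Ticks are single KO libraries minus the VC mean and the dotted line is the median of all genes tested. Of the 43 genes, 14 are called lower (blue) and 5 higher (orange).

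Downstream, a list of 19 further YAP/TAZ target genes had 14 calls (73.7%), 3 higher and 11 lower, and a median log2 fold change of -0.66. The shares over all genes tested were 32.9% called, 13.1% higher and 19.8% lower, with a median of -0.13. When the genes tested were limited to the upper 50% of mean signal, 59.1% of them were called. Of the 14 target genes in that refit, 3 were called higher and 7 lower. *PTPN14* stands both in this list and among the scaffolds. The values of VC and KO did not overlap in 15 of the 19, against 59.3% of all genes with 6 values. Of the 14 calls, 7 remained without VC replicate 1, 9 without VC replicate 2, 6 without VC replicate 3, 14 without KO replicate 1, 13 without KO replicate 2 and 8 without KO replicate 3. The genes called in all 6 of these fits were *MYOF*, *ASAP1*, *NT5E*, *DOCK5*, *NUAK2* and *TGFB2*.

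*TGFB2*, which encodes a secreted growth factor of the TGF-beta family, had signals of -0.36 in each VC library and of -3.06, -4.52 and -3.73 in KO. Its log2 fold change of -3.41 (standard error 0.37, limma adjusted p = 0.00869) was the largest of the list. The matrix gene *CCDC80* fell by 1.34 (limma adjusted p = 0.0132) and the RNA-binding protein gene *RBMS3* by 1.33 (0.0159).

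The target genes that rose were *NUAK2*, *GADD45A* and *IGFBP3*. *NUAK2*, which encodes a kinase related to AMPK, had signals of 0.49, 0.12 and 0.24 in VC and 1.49, 1.90 and 1.55 in KO, for a log2 fold change of 1.36 (standard error 0.16, limma adjusted p = 0.00938). *GADD45A*, a DNA damage and stress response gene, rose by 1.12 (limma adjusted p = 0.0117), and *IGFBP3*, which encodes a binding protein of insulin-like growth factors, by 1.53 (0.0387). *IGFBP3* was uneven in KO, at 3.57, 4.98 and 4.89, and it was called without KO replicate 1 (limma adjusted p = 0.00357) but not without any other single library (0.0916 to 0.104).

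The much used target genes *CCN1* (CYR61) and *CCN2* (CTGF), singled out after their values were seen, did not pass. *CCN1* had signals of 6.06, 6.01 and 6.07 in VC and 5.92, 6.09 and 5.80 in KO, for a log2 fold change of -0.11 (95% confidence interval -0.35 to 0.13, limma adjusted p = 0.388). *CCN2* had signals of 6.78, 6.77 and 6.78 in VC and 6.51, 6.84 and 6.53 in KO, for a log2 fold change of -0.15 (95% confidence interval -0.43 to 0.12, limma adjusted p = 0.319). In both genes KO replicate 2 lay above all VC libraries while KO replicates 1 and 3 lay below them. The interval of neither gene reaches the log2 fold change of -0.81 found for *ANKRD1*. The interval of *ANKRD1* itself, -1.21 to -0.41, overlaps that of *CCN2* and lies below that of *CCN1*. The difference between these genes was not tested. In the promoter windows, TEAD letters were in 6 of the 13 target genes that matched, *CCN2*, *AXL*, *FOXF2*, *PTPN14*, *NUAK2* and *TGFB2*. These include genes called higher, genes called lower and genes that did not pass. The 13 genes had 14 windows, and 11.9% of all promoter windows held the TEAD letters.

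**Figure D5:**
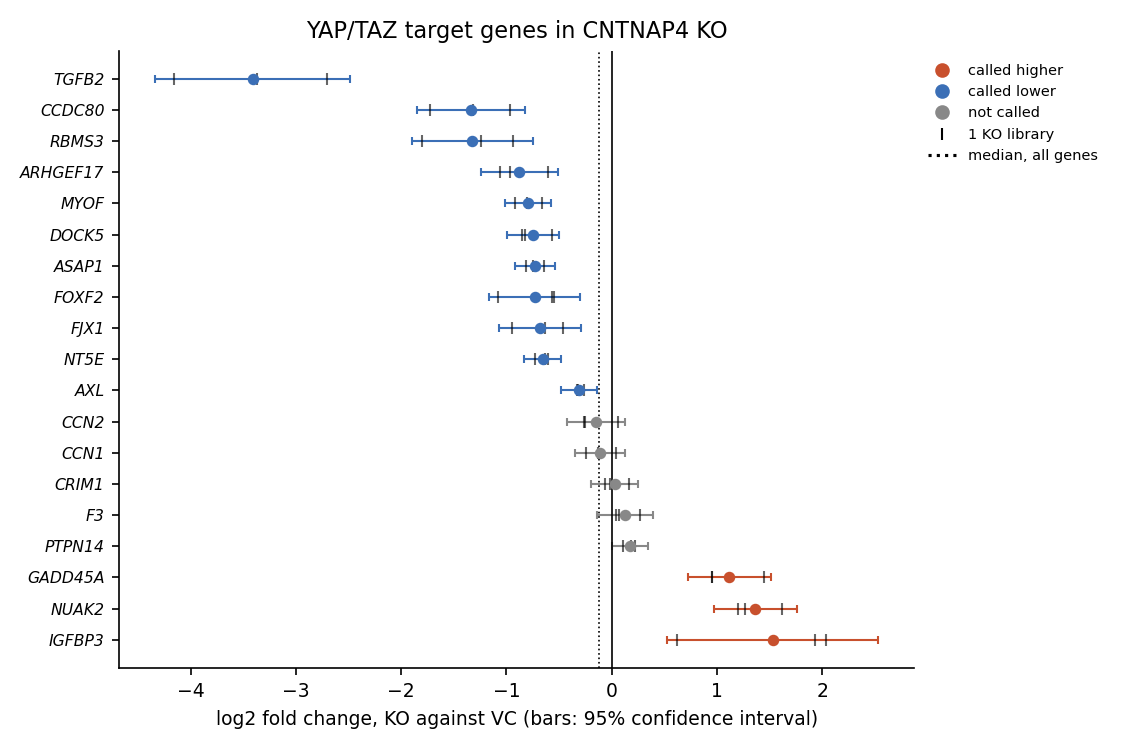
Log2 fold change in KO against VC of the 19 further YAP/TAZ target genes (points) with 95% confidence intervals, in order of fold change. Ticks are single KO libraries minus the VC mean and the dotted line is the median of all genes tested. *TGFB2* is at -3.41 and *IGFBP3* at 1.53, and *CCN1* and *CCN2* lie near the median line.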

How the data were processed

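RNA of 143B cells was extracted with TRIzol and libraries were made with a stranded mRNA kit, per the labels. The methods name an Illumina NextSeq instrument, Partek Genomics Suite and the CLC Genomics tools, and the submitters' processing notes name CASAVA, STAR, Partek and GRCh38.p13. The authors deposited log2 signals, quantile-normalized between libraries, with no counts, so depth and counting error are unknown. Quantile normalization can hide a shift shared by most genes. That the signals are per length was checked with exon lengths of GENCODE release 29 for 36799 of the 54308 genes.

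KO was compared with VC in limma 3.58.1 (R 4.3.3) for every gene that had 2 or more values per group, by a linear model with empirical Bayes moderation without trend and no covariate. Benjamini-Hochberg adjustment of the two-sided p-values covered 19306 genes. The fit was tested on simulated data. Paralog pairs were compared by exact permutation tests. Tables were made with Python 3.11.15.

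The members and lists were chosen with earlier results of these data known. Genes named in the text are the members, *CNTNAP4*, the cell type markers, in each list up to 4 called genes with the largest rise and up to 4 with the largest fall, and for *YAP1* and *ANKRD1* the 3 genes nearest in pattern. A target gene that this rule names is not reported here. Genes outside this rule are marked where they appear, except genes given only as kept in all fits or as holding promoter letters. Promoters and gene order come from RefSeq. In the median-centred alternative, the median of a library was taken over the genes with 6 values. Alternatives were median centring, 1 added to the linear signal, genes with 6 values, genes in the upper 50% of mean signal, trend and robust moderation, no moderation, a replicate block, a 2-fold threshold for the count over all genes, and each library left out.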

Additional observations from a re-analysis of the deposited data

How the results depend on the processing

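Of the 10 Hippo genes, 1 was called higher and 4 lower. The number higher was 2 after median centring, with 1 added to the linear signal, with trend and robust moderation, in the upper 50% of signals and with no moderation, which left 2 lower. Leaving out single libraries gave 0 to 2 higher and 0 to 5 lower. Of the pathway lists, 5 higher became 8 after median centring, with trend and robust moderation and with no moderation, and 9 with 1 added or in the upper 50%, and 14 lower became 7 with no moderation. Single libraries left out gave 1 to 7 higher and 0 to 23 lower. Of the target genes, 11 lower became 7 in the upper 50%, where 14 were tested, and leaving out libraries gave 1 to 3 higher and 5 to 12 lower. Over all 19306 genes tested, the 6354 calls became 6238 after median centring and 7773 with 1 added. They became 7923 with trend and robust moderation and 4432 with no moderation. In the upper 50%, 5702 of 9653 genes were called. The list counts above are read against these. The 6354 calls over all genes became 1840 with a 2-fold threshold and 1223 to 8669 with libraries left out. *TEAD2* minus *TEAD1*, at -0.050, was 0.065 with 1 added and -0.14 to 0.021 with libraries left out, positive without VC replicate 3 or KO replicate 3. The median log2 fold change of all genes was -0.13, -0.042 after median centring and -0.023 with 1 added. The causes were not tested.

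The replicate numbers did not pair the samples, since deviations of same-numbered libraries correlated at 0.0226, 0.00509 and -0.00736 across 17698 genes. With a replicate block 0 of the 10 Hippo genes were called higher and 0 lower (limma adjusted p = 0.0502 for *ANKRD1*, the lowest), and 1 pathway gene was called higher, 2 lower, and 1533 genes over all. Read depth is unknown, so the counting error behind the lower signals of the 10 genes, such as those of *TEAD2* and *LATS2*, was not given. The smallest product of signal and transcript length among the 10 genes was 300.6 of the steps described above. Whether 1 step is 1 read was not tested.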
